A study of Mus musculus with 16 samples.

Results

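The genes described here handle glutamate and glutamine: Slc1a1, Slc1a2, Slc1a3, Slc7a11 and Slc38a3, which encode membrane transporters, and Glul, Glud1, Got1 and Pcx, which encode enzymes. They were taken by name, 9 of the 20730 genes listed in each library, and all 9 passed the filter on low reads in every comparison. The RNA came from whole striata of 8 adult C57BL/6N mice. All 8 mice carried the RiboTag AAV (adeno-associated virus), which puts the ribosomal protein Rpl22 with a hemagglutinin tag (Rpl22-HA) into astrocytes. In 4 mice, called control mice, a second AAV encoded a control protein. In the other 4, called PMCA mice, it encoded hPMCA2w/b, a human plasma membrane calcium pump used to suppress calcium signals. Each mouse gave 2 libraries, 1 of cleared lysate (input) and 1 of RNA that came down with the tagged ribosomes (IP), so that 16 libraries fall in 4 groups of 4. The sources used here do not give the promoter of the viruses, the identity of the control protein, or the age in weeks and the sex of the mice. The question posed by the design is how ribosome-bound RNA of striatal astrocytes differs when their calcium signals are reduced.

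Glutamate released at synapses is taken up mainly by astrocytes through sodium-coupled carriers. Inside the astrocyte it is amidated to glutamine, which is passed back to neurons, or it is deaminated or transaminated and enters the tricarboxylic acid cycle. New glutamate carbon comes from pyruvate by way of carboxylation. In the striatum the released glutamate comes mostly from cortical and thalamic axons, whose cell bodies lie outside the striatum.

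Levels are given as CPM, the reads of a gene scaled to the effective size of its library, and differences on the log2 scale, where 1 is a doubling. The libraries held 32.3 to 40.9 M reads in the inputs and 46.8 to 58.5 M in the IPs. Every member was read at least 1797 times in each library, so differences between mice, not counting error, set the precision. Positions are those of RefSeq on GRCm38.p6, the assembly with the coordinates of mm10. The 12 astrocyte markers examined were all higher in IP than in input in both treatments, by a median of 3.12 in control mice and 3.17 in PMCA mice, among them Aldh1l1 with 3.18 in control mice. All 8 microglia markers were lower in IP, with Cx3cr1 at -5.42, and so were the 8 projection neuron markers. Interneuron markers did not follow them: 7 of 8 were higher in IP in control mice (median 1.99), with Nos1 (3.48) and Chat (2.50) the highest, which are named after their values were seen and are known from nitric oxide synthase and cholinergic interneurons. Of the 8 oligodendrocyte markers 3 were called higher and 1 lower in IP in control mice (median 0.29), and 5 higher and 0 lower in PMCA mice (median 0.45). Mbp, a myelin gene, was not called in control mice. Of 6 markers of oligodendrocyte precursors 5 were higher and 0 lower in control mice (median 0.67). The 8 general neuron markers were mixed, with 4 lower and 2 higher in control mice (median -0.42) and 6 lower and 1 higher in PMCA mice (median -0.84). Rpl22, which counts the mouse's own and the viral copy together, was lower in PMCA mice, at 277 ± 20.7 CPM (SD, n = 4) against 895 ± 89.8 in the IPs and at 105 ± 6.13 against 194 ± 18.7 in the inputs. The presence of the pump and the lower Rpl22 level cannot be told apart in what follows. Mouse Atp2b2, the gene of the same pump, differed by 0.35 in IP and 0.13 in input without passing the test, and how far reads of the human sequence were counted under it is not known. Xist, made from the inactive X chromosome of female cells, was high in the libraries of 1 mouse of each treatment, control 4 and PMCA 3.

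Slc1a2 encodes GLT-1, the main glutamate transporter of the forebrain, which lies at chr2:102658239-102790784. Slc1a3 encodes GLAST, the other astrocytic uptake carrier, at chr15:8634124-8710807. These were the members that were higher in PMCA mice in the input, and the RefSeq sequence around a listed start of each (250 bases before to 50 after, 5′ to 3′ on the gene's strand) is therefore shown. The Slc1a2 window is chr2:102706188-102706487 on the plus strand. It lies inside the annotated span of the gene and not at its upstream end, so its sequence describes an internal start. The Slc1a3 window is chr15:8710758-8711057 on the minus strand, at the upstream end of its gene. Capitals mark matches to the E-box, CANNTG, which reads the same class of letters on both strands.
Slc1a2: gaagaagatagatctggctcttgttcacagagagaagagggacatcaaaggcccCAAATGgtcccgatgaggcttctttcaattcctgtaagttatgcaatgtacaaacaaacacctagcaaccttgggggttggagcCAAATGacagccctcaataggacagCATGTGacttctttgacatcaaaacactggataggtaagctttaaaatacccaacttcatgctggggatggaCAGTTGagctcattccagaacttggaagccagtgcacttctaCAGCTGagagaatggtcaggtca
Slc1a3: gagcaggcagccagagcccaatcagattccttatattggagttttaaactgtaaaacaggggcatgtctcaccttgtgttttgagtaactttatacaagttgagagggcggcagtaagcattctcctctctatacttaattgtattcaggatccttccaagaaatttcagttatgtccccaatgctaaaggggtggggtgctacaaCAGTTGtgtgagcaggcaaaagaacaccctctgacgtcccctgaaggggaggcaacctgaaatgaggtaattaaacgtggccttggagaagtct
The Slc1a2 window holds 5 matches and the Slc1a3 window 1. An E-box match is common, present in 72.3% of the 32851 windows of this length in the same table. Neither window holds a match to TGATGNAA, the element bound by the stress factor ATF4 (3.97% of all windows), or to TGACNNNGC, the antioxidant element (12.4% of all windows). Both motifs were searched on both strands. The Slc1a2 window has 1 CpG and a GC content of 45.7%, and the Slc1a3 window has 3 CpG and 45.3%, against medians of 7 and 52.7% over all windows.

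In the inputs Slc1a2 lay at 1672, 1608, 1622 and 1439 CPM in control mice 1 to 4. In PMCA mice 1 to 4 it lay at 2096, 2053, 1902 and 1821 CPM. Every PMCA input was above every control input. Slc1a2 was 24.2% higher in the inputs of PMCA mice, a difference of 0.31 (SE 0.058, 95% confidence interval 0.18 to 0.44), with an adjusted p of 0.0485 by limma. Slc1a3 read 400.1, 414, 396 and 439.8 CPM in the control inputs. The PMCA inputs read 498, 499.9, 488 and 487 CPM, close together and all above the control inputs. Slc1a3 was 19.7% higher, by 0.26 (SE 0.039, interval 0.17 to 0.35), with an adjusted p of 0.0344 by limma. In the input, 2 of 9 members thus rose and 0 fell, where 0.362% of the 16306 genes tested were called higher and 0.0797% lower. Groups that did not overlap were found for 2 of 9 members, against 9.76% of all genes. The members were chosen with earlier results of these data known, so such shares, here and below, do not test the set.

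The call of Slc1a2 in the input was lost in 11 of 21 alternative settings and that of Slc1a3 in 12, always in the same direction, with adjusted p-values up to 0.375 for Slc1a2 and 0.204 for Slc1a3. Among these settings are 7 of the 8 that leave out a mouse, all but control 4. In bulk RNA more astrocytes and more of an mRNA per astrocyte cannot be told apart. In the same inputs 0 of 12 astrocyte markers were called by limma, though 5 had an unadjusted p under 0.05, and their median difference was 0.12, their summed level ranging from 1910 to 2110 CPM in control and 2097 to 2214 CPM in PMCA mice. The list was mixed. Gfap rose from a mean of 8.49 to 8.85 log2 CPM, while Gja1 (7.19 to 7.15), Gjb6, Aldoc and S100b had lower means in PMCA inputs. Centring uses the mean log2 CPM of this mixed list. With each library centred on these markers, Slc1a2 differed by 0.21 and Slc1a3 by 0.15, with adjusted p-values of 0.060 and 0.052.

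**Figure D1:**
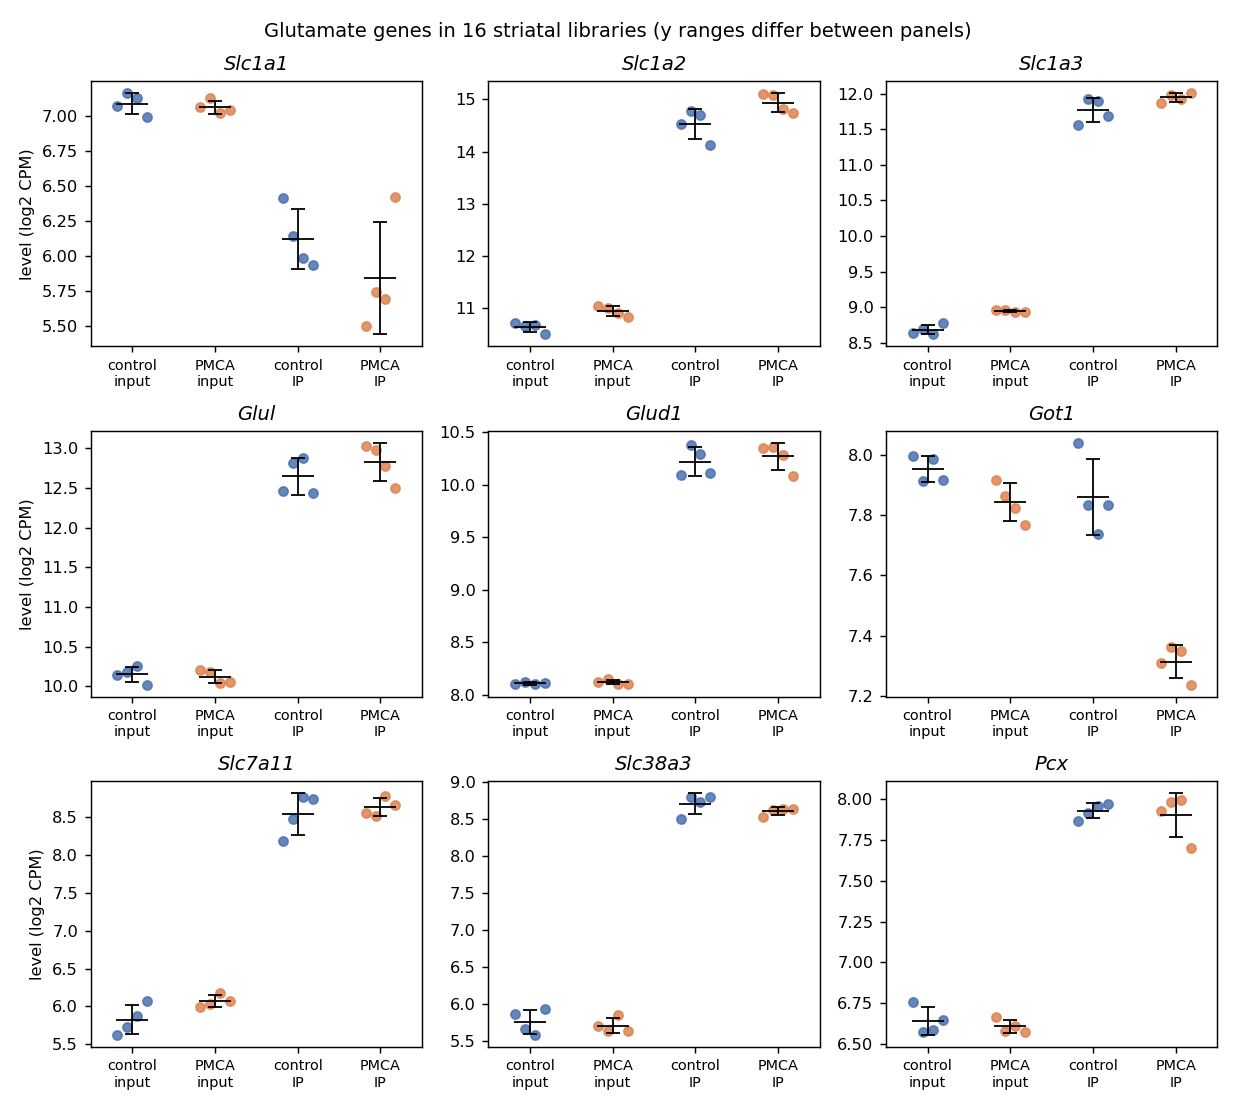
Level of each of the 9 genes in the 16 libraries, in log2 CPM (y axis, a different range in each panel), by treatment and fraction; points are mice, horizontal lines the mean and bars 1 SD (n = 4). Slc1a2 and Slc1a3 are higher in all 4 PMCA inputs than in any control input, and Got1 is lower in all 4 PMCA IPs than in any other library.

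In the IPs Slc1a2 was read far more often. Control IPs read 23528, 28056, 26735 and 17901 CPM, and PMCA IPs read 35085, 34868, 28969 and 27241 CPM. The groups overlapped, since the lowest PMCA library was below the highest control library. The difference of 0.40 (SE 0.221, interval -0.089 to 0.89) did not pass the test, with an adjusted p of 0.223 by limma. Slc1a3 read 3026, 3894, 3818 and 3296 CPM in control IPs and 3748, 4028, 3902 and 4116 CPM in PMCA IPs, and these groups overlapped too. Its difference was 0.18 (SE 0.115, interval -0.078 to 0.43, adjusted p 0.301 by limma). Whether the PMCA effect differed between IP and input was tested directly: for Slc1a2 the difference of the effects was 0.091 (SE 0.196) and for Slc1a3 -0.082 (SE 0.110), neither past the threshold. Beside these values, 4 of 12 astrocyte markers were higher in the PMCA IPs (median 0.26). Their summed level was 12808 to 17651 CPM in control and 17643 to 19488 CPM in PMCA mice. The part of these markers in the Slc1a2 and Slc1a3 values in IP was not tested beyond the centred fit. In that fit Slc1a3 turned to -0.087, while Slc1a2 did not change sign, and neither was called.

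Slc1a2 took more reads than any other gene in 8 of 8 IP libraries. Its share was 1.63% to 2.53% of the reads in control IPs and 2.43% to 3.14% in PMCA IPs, against 0.159% to 0.184% and 0.204% to 0.232% in the inputs. The 9 members together took 2.67% to 4.46% of the reads of an IP and 0.420% to 0.514% of those of an input. Slc1a2 was 15-fold higher in IP than in input in control mice (3.91, SE 0.155) and 16.0-fold in PMCA mice (4.00, SE 0.118), with adjusted p-values of 3.81e-09 and 6.15e-10 by limma. Slc1a3 was 8.47-fold and 8.00-fold higher (3.08 and 2.999).

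Slc1a1 encodes EAAC1, a carrier of glutamate and cysteine that is known mainly from neurons, at chr19:28835135-28913960. It read 134.0, 143, 139.5 and 127 CPM in the control inputs and 133, 139.6, 129.5 and 131 CPM in the PMCA inputs, values that overlap. The control IPs were lower, at 85.1, 70.6, 63.2 and 61.3 CPM. Among the PMCA IPs 3 were lower still, at 45.3, 53.6 and 51.9 CPM, and PMCA 4 read 85.6 CPM, as high as the highest control IP. Slc1a1 was the only member called lower in IP than in input in both treatments, by -0.97 (SE 0.095) in control mice and -1.22 (SE 0.160) in PMCA mice, with adjusted p-values of 3.80e-06 and 4.89e-05 by limma. Between treatments in IP its difference of -0.28 (SE 0.181, interval -0.68 to 0.13) did not pass the test (adjusted p 0.307 by limma). Without PMCA 4 the difference was -0.47 and passed, with an adjusted p of 0.0186 by limma. Slc1a1 was called in IP in 2 of 21 alternative settings, and over the fits that leave out a mouse the adjusted p reached 0.582. In the same IPs 6 of 8 neuron markers were lower in PMCA mice (median -0.44). Their mean was 6.94 log2 CPM in PMCA 4 and 6.68 to 6.73 in the other PMCA IPs. The part of these markers in the Slc1a1 values was not tested.

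Slc7a11 encodes xCT, which exports glutamate in exchange for cystine and so feeds glutathione synthesis, at chr3:50364936-50499087. The control inputs read 49.4, 52.9, 58.5 and 67.1 CPM and the PMCA inputs 63.7, 65.3, 72.3 and 67.3 CPM, with control 4 inside the range of the PMCA mice. The difference of 0.24 (SE 0.083, interval 0.062 to 0.43) did not pass the test over all genes, with an adjusted p of 0.162 by limma. It passed in 2 of 21 alternative settings. Without control 4 it was 0.33, with an adjusted p of 0.0121 by limma. With the Xist level as a covariate and all mice kept it was 0.24, with an adjusted p of 0.0339 by limma. Control 4 is also the control mouse with high Xist, so these 2 settings are not independent of each other. In them the genes called in input rose from 72 to 1356 and 786. In the other 19 settings Slc7a11 was not called, with adjusted p-values up to 0.474. In IP the groups read 291 to 437 CPM and 367 to 441 CPM, a difference of 0.087 (SE 0.126) that did not pass. Slc7a11 was 6.59-fold higher in IP than in input in control mice and 5.90-fold in PMCA mice. Its start window at chr3:50443564-50443863 on the minus strand holds 2 matches to the ATF4 element, TGATGCAA and TTGCATCA. This window too lies inside the annotated span of the gene and not at its upstream end.

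Slc38a3 encodes SNAT3, the carrier through which astrocytes release glutamine, at chr9:107651154-107668968. It lay at 48.1 to 61.2 CPM in control inputs and 49.9 to 57.9 CPM in PMCA inputs. In IP it lay at 364 to 446 CPM and 370.1 to 399 CPM. The differences between treatments, -0.053 (SE 0.078) in input and -0.10 (SE 0.078) in IP, did not pass the test. It was 7.70-fold higher in IP than in input in control mice and 7.45-fold in PMCA mice.

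Glul encodes glutamine synthetase, the astrocytic enzyme that turns glutamate and ammonia into glutamine, at chr1:153899929-153909723. It read 1042 to 1223 CPM in control inputs and 1055 to 1178 CPM in PMCA inputs. In the IPs it read 5646, 7244, 7521 and 5532 CPM in control mice and 8394, 8069, 7056 and 5801 CPM in PMCA mice, so that the groups overlapped. The difference of 0.18 (SE 0.169, interval -0.20 to 0.55, adjusted p 0.497 by limma) did not pass the test. Glul was 5.65-fold and 6.51-fold higher in IP than in input. Glud1, which encodes glutamate dehydrogenase and lies at chr14:34310727-34345033, varied little in the inputs, at 274 to 278 CPM in control and 275 to 284 CPM in PMCA mice. It lay at 1092 to 1334 CPM and 1087 to 1313 CPM in the IPs. The PMCA effect was 0.012 (SE 0.031, interval -0.056 to 0.080) in input and 0.049 (SE 0.099, interval -0.17 to 0.27) in IP.

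Got1 encodes the cytosolic aspartate aminotransferase, which interconverts glutamate and aspartate and works in the malate-aspartate shuttle that carries reducing equivalents into mitochondria. It lies at chr19:43499752-43524605. The control IPs read 263, 228, 213 and 228 CPM. The PMCA IPs read 159, 164, 163 and 151 CPM, all below every control IP and below every input. Got1 fell by 31.5% in the IPs of PMCA mice, a difference of -0.55 (SE 0.072, interval -0.71 to -0.38), with an adjusted p of 0.00266 by limma. It was the only member called between treatments in IP, 1 of 9, where 9.54% of the 15748 genes tested were called higher and 10.1% lower. A share of 1 in 9 is near that background, and groups that did not overlap were found for 1 member against 25.5% of all genes. The call of Got1 held in 21 of 21 alternative settings, with differences from -0.81 to -0.48 and adjusted p-values up to 0.0129.

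In the inputs Got1 read 255.0, 241, 253 and 241 CPM in control mice and 242, 233, 226.6 and 218 CPM in PMCA mice. The groups overlapped by a narrow margin, and the difference of -0.11 (SE 0.041, interval -0.20 to -0.020) did not pass the test (adjusted p 0.189 by limma). With libraries centred on astrocyte markers Got1 was called lower in the inputs, at -0.22 with an adjusted p of 0.0323 by limma. Centring takes the same amount off the input difference of every gene, and the genes called in input rose from 72 to 1699. In the other 20 of 21 alternative settings Got1 was not called in input. The PMCA effect on Got1 differed between the fractions, by -0.44 (SE 0.084) with an adjusted p of 0.0181 by limma. That made Got1 1 of 9 members called in this test, where 0.972% of the 16673 genes tested were called higher and 1.06% lower. The call was lost when any of control 2, PMCA 1, PMCA 2 or PMCA 3 was left out (adjusted p 0.064 to 0.079) and when libraries were centred on astrocyte markers (adjusted p 0.116), with differences from -0.59 to -0.41. Because Got1 is also made in neurons, the neuronal markers are given here: in IP 6 of 8 neuron markers were lower in PMCA mice (median -0.44), and their summed level ranged from 2040 to 2606 CPM in control and from 1593 to 1854 CPM in PMCA IPs. Interneuron markers were lower for 6 of 8 (median -0.42), with sums of 1207 to 1259 and 988 to 1106 CPM. Rbfox3, a marker of most neurons, differed by -0.066 and was not called, and no neuron or interneuron marker had 0 reads in any IP. Between fractions, 5 of 8 interneuron markers (median -0.49) and 2 of 8 neuron markers (median -0.37) were called lower, and 0 higher. The part of all these markers in the Got1 results was not tested. The start window of Got1 at chr19:43524556-43524855 on the minus strand holds 1 match to the ATF4 element, TTGCATCA. Such a match is present in 3.97% of all windows. Among the members Slc7a11 has it too, and the windows of Slc1a1, Slc1a2, Slc1a3, Glul, Glud1 and Pcx do not. A link between the match and the level of Got1 was not tested.

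Pcx encodes pyruvate carboxylase, the astrocytic enzyme that supplies new carbon for glutamate, at chr19:4510472-4621752. It lay at 95.1 to 108 CPM in control inputs and 95.5 to 101 CPM in PMCA inputs. In IP it lay at 234 to 251 CPM and 208 to 255 CPM. The PMCA effect was -0.033 (SE 0.047) in input and -0.028 (SE 0.074, interval -0.19 to 0.14) in IP, and neither passed the test. Pcx was 2.44-fold higher in IP than in input in control mice and 2.45-fold in PMCA mice.

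**Figure D2:**
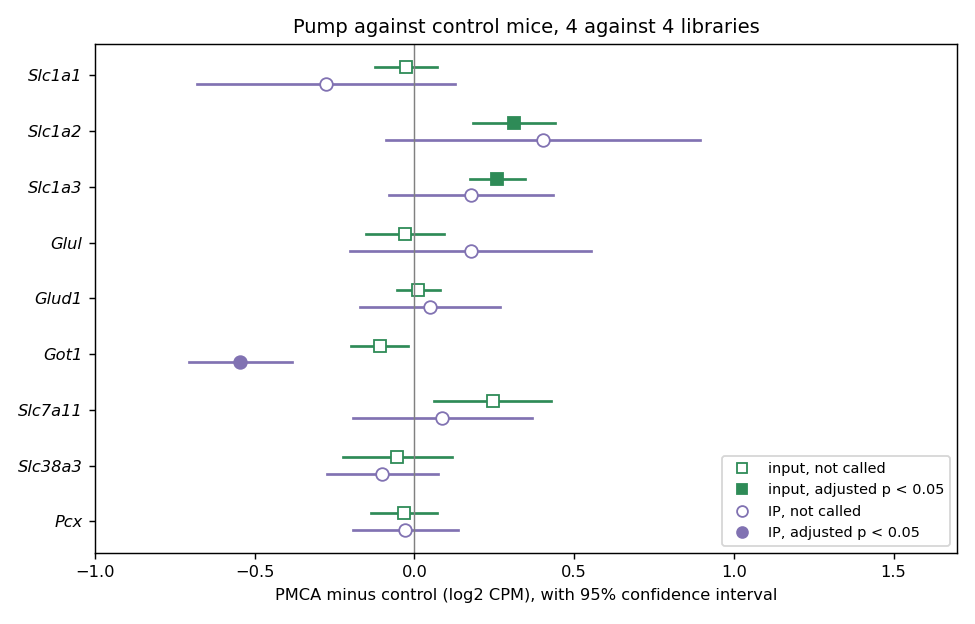
Difference between PMCA and control mice for each gene (x axis, log2 CPM) in input (squares) and IP (circles), with lines for the 95% confidence interval of limma; filled symbols have an adjusted p under 0.05. Got1 in IP lies at -0.55, and Slc1a2 and Slc1a3 in input at 0.31 and 0.26, while the interval of Slc1a2 in IP reaches from -0.089 to 0.89.

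For IP against input, 7 of 9 members were called higher and 1 lower in control mice, where 39.1% of 16072 genes were called higher and 38.4% lower. In PMCA mice 7 were higher and 2 lower, where 37.4% of 16345 genes were called higher and 39.3% lower. The second lower gene was Got1, at -0.53 (SE 0.051, adjusted p 4.13e-06 by limma) in PMCA mice against -0.092 (SE 0.067, adjusted p 0.230) in control mice. In control mice Got1 was called lower with unscaled total reads (-0.37), with quantile normalization (-0.31), with sample weights (-0.14) and without control 1 (-0.14).

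Because the input and the IP of a mouse come from the same striata, the ratio can be taken within each animal. The Slc1a2 ratio lay between 3.64 and 4.13 in the 8 mice, the Slc1a3 ratio between 2.91 and 3.27, and the Slc38a3 ratio between 2.64 and 3.14. Slc7a11 followed at 2.49 to 2.90, Glul at 2.32 to 2.83, Glud1 at 1.98 to 2.26 and Pcx at 1.11 to 1.398. Got1 lay at -0.61 to 0.043 and Slc1a1 at -1.56 to -0.62. Each gene in this order had a higher ratio than the next in 8 of 8 mice, except that Slc7a11 was above Glul in 5 of 8, a pair whose mean difference of 0.041 was under its SD of 0.24. The uptake carriers and the glutamine carrier were thus the most enriched members, the enzymes less so, and the neuronal carrier was depleted. Got1 was above 0 in 1 of 4 control mice and in 0 of 4 PMCA mice, and its ratios in the treatments did not overlap (-0.25 to 0.043 and -0.61 to -0.47). These ratios hold the same values as the test between fractions and add no separate evidence. The share of all genes whose ratios do not overlap was not computed.

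**Figure D3:**
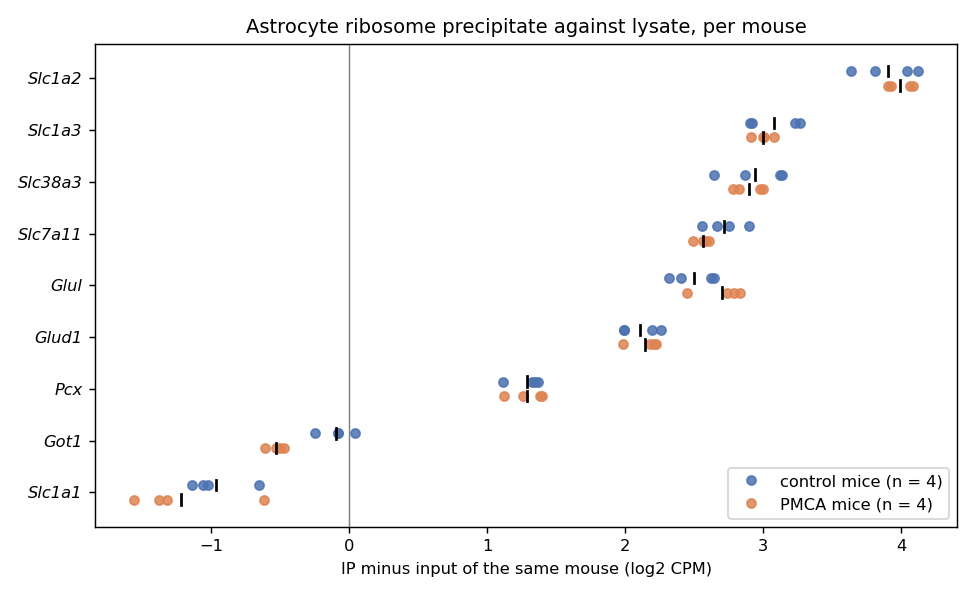
IP minus input of the same mouse (x axis, log2 CPM) for each gene, ordered by its mean; blue points are the 4 control mice, orange points the 4 PMCA mice and black ticks the mean of each. Slc1a2 lies near 4 in all 8 mice, Slc1a1 is below 0 in all 8, and Got1 is lower in every PMCA mouse than in any control mouse. The share of all genes with such a gap was not computed.

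Around the 9 members, 57 further genes of glutamate transport, metabolism and reception were examined in 6 lists. In IP, 54 were tested, 3 were called higher in PMCA mice and 9 lower, and their median was -0.13 against -0.012 over all genes. With 9.54% of all genes called higher and 10.1% lower in IP, 12 calls among 54 are near the background in number. In input 0 of 55 were called by limma and 10 had an unadjusted p under 0.05, with a median of 0.0014. Of the 7 genes listed for the exchange of glutamate, aspartate and malate with mitochondria, 3 fell in IP and 0 rose, beside the same shares of all genes. Slc25a12 (aralar, the aspartate-glutamate carrier) fell by 0.45 (SE 0.070), Mdh1 (cytosolic malate dehydrogenase) fell by 0.46 (SE 0.066) and Slc25a18 (a mitochondrial glutamate carrier) fell by 0.58 (SE 0.089), with adjusted p-values of 0.00386, 0.00310 and 0.00390 by limma. Mdh1 and Slc25a12 work in the same shuttle as Got1. The neuron markers that fell in the same IPs (6 of 8, median -0.44) moved with these genes too, and their part in these values was not tested. Slc25a18 was itself 2.35 higher in IP than in input in control mice, while 4 of 12 astrocyte markers were called higher and 0 lower in PMCA IPs. In input Slc25a18 was also lower in PMCA mice, at 13.6 ± 1.57 against 17.2 ± 1.23 CPM (SD, n = 4), without being called. The other shuttle genes listed did not pass the test in IP: Slc25a11 at -0.12, Slc25a13 at -0.13, Mdh2 at -0.10 and Got2, the mitochondrial aminotransferase, at -0.33 (adjusted p 0.0789). The calls of Slc25a12, Mdh1 and Slc25a18 in IP held in 21 of 21 alternative settings, a check added after their calls were seen.

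Among the 15 enzymes 4 fell and 1 rose in IP, where 10.1% of all genes fell and 9.54% rose. Asns, asparagine synthetase, fell by 0.58 (SE 0.088, adjusted p 0.00360 by limma). Bcat1, the cytosolic branched-chain aminotransferase, fell by 0.35 (adjusted p 0.0254). Gclc and Gclm, the subunits of glutamate-cysteine ligase, each fell by 0.31 (adjusted p 0.00459 and 0.0246). Prodh, proline dehydrogenase, which starts the path from proline to glutamate, rose by 0.53 (SE 0.154, adjusted p 0.0361). Gls2 differed by -0.38 without passing the test (adjusted p 0.0924). In alternative settings Asns and Gclc were called lower in 21 of 21, Gclm in 15, Bcat1 in 14, and Prodh was called higher in 12.

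Of the 9 other membrane transport genes, 7 were tested in IP. Slc1a5, a neutral amino acid exchanger that carries glutamine, rose from 11.5 ± 1.60 to 20.2 ± 5.07 CPM (SD, n = 4), by 0.78 (SE 0.170, adjusted p 0.0130 by limma). Its call was lost with libraries centred on astrocyte markers (0.52, adjusted p 0.0565) and with the animal number sets of the source names as a covariate (0.51, adjusted p 0.0642). Markers of other cells that moved in the same direction in IP were those of microglia (5 of 8 higher, summed level 23.2 to 35.3 CPM in control and 42.2 to 89.4 CPM in PMCA mice), endothelium (4 of 8 higher and 1 lower) and meninges (3 of 4 tested higher). Their part in the Slc1a5 result was not tested. Of the projection neuron markers 1 of 8 was lower, and 0 of 8 oligodendrocyte and 0 of 6 precursor markers were called by limma, with 0 and 1 of them at an unadjusted p under 0.05. Slc1a6, a carrier known from Purkinje cells, fell from 4.91 ± 0.345 to 3.27 ± 0.425 CPM, by 0.59 (adjusted p 0.0107). Slc17a8, the vesicular glutamate transporter of cholinergic interneurons, fell by 0.33 (adjusted p 0.0178), a call lost with the source-name sets (adjusted p 0.100), without control 2 (0.0569) and without PMCA 3 (0.0557). Slc17a6 and Slc17a7, the vesicular transporters of the afferent neurons, differed by -0.55 (SE 0.259) and -0.23 (SE 0.638) without passing the test. Slc17a7 varied widely between mice, at 71.0 ± 35.3 CPM in control inputs and 55.3 ± 22.4 CPM in PMCA inputs (SD, n = 4). Whether cortical tissue was included in some samples was not tested. Among 15 ionotropic receptor genes Grik2 rose by 0.24 (adjusted p 0.0413) and lost its call in 14 of 21 alternatives, turning to -0.027 with libraries centred on astrocyte markers. Of the 7 metabotropic receptors tested 0 were called by limma, and 0 had an unadjusted p under 0.05.

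The PMCA effect differed between IP and input for 5 of 55 of these genes, all more negative in IP: Slc17a8 (-0.49), Asns (-0.46), Mdh1 (-0.34), Slc25a12 (-0.33) and Gclc (-0.28), with adjusted p-values from 0.0225 to 0.0450 by limma. Of all genes 1.06% were called lower and 0.972% higher in this test. Each of these calls was lost in 5 to 12 of 21 alternatives. None of the 5 was called with libraries centred on astrocyte markers or without control 2, PMCA 1 or PMCA 3. With the animal as a block Mdh1 lost its call (adjusted p 0.0525). In the same test 5 of 8 interneuron markers (median -0.49) and 2 of 8 neuron markers (median -0.37) were called lower, and 0 higher. The part of these markers in the values of the 5 genes was not tested.

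**Figure D4:**
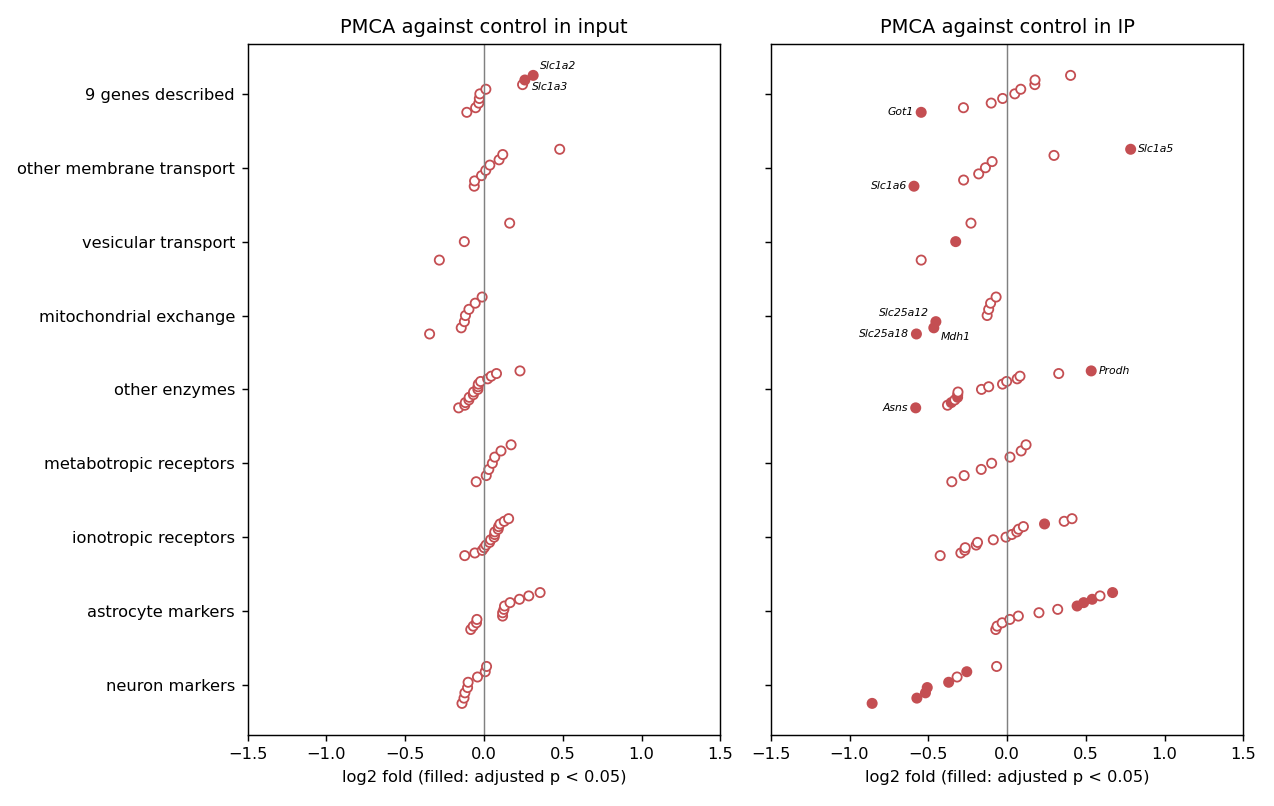
Difference between PMCA and control mice (x axis, log2 CPM) in input (left) and IP (right), 1 point per gene, for the 9 genes, 6 lists of further glutamate genes and the astrocyte and neuron markers; filled points have an adjusted p under 0.05, and height within a row only separates the points. In IP 9 of 54 further glutamate genes are filled on the left and 3 on the right, and in input 0 of 55.

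Against input, 25 of the 55 further genes were called higher and 22 lower in control mice, beside 39.1% and 38.4% of all genes. By list, 6 of 8 membrane transport genes were higher and 1 lower, 10 of 15 enzymes were higher and 4 lower, 4 of 15 ionotropic receptors were higher and 10 lower, and 1 of 7 metabotropic receptors was higher and 5 lower. The highest of the membrane carriers were Slc1a4 (2.14), a carrier of alanine, serine and cysteine, and Slc3a2 (1.59), the heavy chain that partners Slc7a11. The lowest called were Slc38a2 (0.39) and Slc38a5, which was read 65 to 165 times in control inputs and 0 to 15 times in control IPs. Slc17a8 was the only vesicular transporter called (2.44). Of the mitochondrial exchange genes Slc25a18 (2.35) and Mdh2 (0.54) were highest, and Slc25a22 (-0.53) and Slc25a12 (-0.18) lowest. Of the enzymes Prodh (2.54) and Aldh4a1 (2.54), consecutive steps of proline breakdown, were highest, and Gls2 (-0.69) was lowest. Among metabotropic receptors Grm3 (1.75) was the only gene called higher, and Grm4 (-1.46) and Grm8 (-1.55) were lowest. Among ionotropic receptors the NMDA receptor subunits Grin2c (2.61) and Grin3a (2.01) were highest, and Gria2 (-1.22) and Grin2a (-1.06) lowest.

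The genes whose log2 CPM followed a member most closely over the 16 libraries were named by Pearson's r among 16672 genes. For Slc1a2 they were Scara3, Vwa8 and Prex2, each with r of 0.999. For Slc7a11 they were Lap3, Pbxip1 and Pomt1, with r of 0.998, 0.997 and 0.997. For Slc1a1 they were Cacna2d1, Alcam and Gcnt2, with r of 0.992, 0.992 and 0.991. All 16 points share the split into 8 inputs and 8 IPs, and r within a fraction was not computed.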

How the data were processed

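RNA was sequenced from the input and the IP of 8 mice, 4 per treatment. Per the labels' protocols, an RNeasy kit gave the RNA, a stranded TruSeq kit with RiboZero Gold depletion the libraries, and a HiSeq4000 the reads. The submitters' processing notes name STAR, HTSeq, edgeR and limma and the build mm10. Their versions and the strand rule of counting, not given in the sources used here, stay unknown. The authors deposited log2 CPM per library. Undoing the log2 scale and a mean prior count of 0.25 gave whole reads for 100% of the values, within 0.001. Input libraries carry the authors' scaling factors of 1.10 to 1.12, and IP libraries 0.89 to 0.92.

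The deposited log2 CPM were tested with limma 3.58.1 in R 4.3.3 (linear model, two-sided, empirical Bayes with a variance trend). P-values were adjusted by Benjamini-Hochberg over all genes tested, with a threshold of 0.05. Genes needed 10 reads, in a library of median size, in at least 4 libraries and 15 reads in all. The 5 comparisons were PMCA against control in IP and in input, IP against input in each treatment, and the interaction of treatment and fraction over all 16 libraries. The script was tested on simulated data. Pairs of replicates differed beyond sampling noise (chi-square per degree of freedom 4.57 to 99.3 over 24 pairs), so libraries, not reads, are the replicates. In the comparisons within IP or within input each mouse counts once. In the comparisons across fractions both libraries of a mouse enter, and the main fits, whose p-values are given, treat them as independent.

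Labels tie the input and IP of a mouse through its animal number. Their deviations from the group means correlated with r of 0.114 to 0.327 in the 8 mice, and 6 of 8 inputs correlated best with their own IP, so fits across fractions were repeated with the animal as a block. The title and the source name of control 4 give different animal numbers, and both were tried where low and high animal numbers entered as a covariate.

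The members and lists were chosen with earlier results of these data known. Named are all members, the listed glutamate genes called between treatments, and, for IP against input in control mice, the 2 highest and 2 lowest called genes of each list, of which some are not reported here. The 3 genes most like Slc1a2, Slc1a1 and Slc7a11 are named too, as are Aldh1l1, Rbfox3, Mbp and Cx3cr1 for the markers and Rpl22 and Atp2b2 for the viruses. Marker lists covered astrocytes, neurons, projection neurons, interneurons, oligodendrocytes, their precursors, microglia, endothelium and meninges. Levels were not compared between genes, since transcript lengths were not used here. Start windows came from RefSeq (GRCm38.p6), with entries for 8 of 9 members.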

Additional observations from a re-analysis of the deposited data

Results flagged for a closer look

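Slc38a3 in the IPs of PMCA mice had a library apart from the rest: PMCA 1 lay at 8.53 log2 CPM, while the other 3 lay between 8.62 and 8.64. All 36 groups of 4 libraries (9 genes in 4 groups) were examined for such a gap with Dixon's test, this was the only one past it, and chance gives about 1 in 20. The group's SD of 0.052 was smaller than that of the control IPs (0.14), and PMCA 1 was inside the range of the control IPs.

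The PMCA effect on Got1 differed between IP and input by -0.44 (adjusted p 0.0181 by limma), with levels falling by 0.55 in IP and a difference of -0.11 in input that did not pass the test. The IP-minus-input difference was lower in each of the 4 PMCA mice than in any of the 4 control mice. It holds the same values as that test, and the share of all genes with such a gap was not computed. The call between fractions was lost in 5 of 21 alternatives.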

How the results depend on the processing

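Over the 45 results of the 9 genes, 784 of 855 alternatives kept direction and side of the threshold, and 18 of the 21 calls held in all of theirs; no called member reversed. The exceptions were Slc1a2 and Slc1a3 in input and Got1 between fractions, with values in the report; the cause was not tested. Members called in IP numbered 3 of 9 with libraries centred on astrocyte markers (Got1, Slc38a3 and Pcx), and 2 in a fit over all libraries (with Slc1a2 at an adjusted p of 0.0380) and with sample weights (with Slc1a1, 0.0202), against 1. In input they numbered 0 without a filter, without the variance trend and in the fit over all libraries, 1 with astrocyte centring (Got1, called lower, with Slc1a2 and Slc1a3 both lost), 1 with the source-name animal sets (Slc1a2) and 3 with Xist as a covariate (with Slc7a11), against 2. Between fractions they numbered 2 with quantile normalization and 0 with astrocyte centring, against 1. Leaving out a mouse gave 1 to 2 members in IP, 0 to 3 in input and 0 to 1 between fractions.

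All genes called in IP (3088) numbered 5058 with astrocyte centring, 4894 in the fit over all libraries, 5525 with sample weights and 1699 with the source-name sets. In input (72) they numbered 27 without a filter, 124 with quantile normalization, 1699 with astrocyte centring, 13 without the trend, 47 in the fit over all libraries, 494 with sample weights, 868 and 32 with the title and source-name sets and 786 with Xist as a covariate. Between fractions (339) they numbered 44 with astrocyte centring, 1217 with sample weights and 549 with the title sets. Leaving out a mouse gave 1685 to 3573 in IP, 4 to 1356 in input (1356 without control 4, at most 33 without any other) and 23 to 456 between fractions.

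Values that were not called and changed sign were these. Astrocyte centring, which lowers every IP difference by 0.26, turned Slc1a3 (-0.087), Glul (-0.089), Glud1 (-0.22) and Slc7a11 (-0.18) in IP, Glud1 in input (-0.095), and Slc1a2 (-0.067), Glud1 (-0.12) and Pcx (-0.15) between fractions, besides Grik2 in IP (-0.027), whose call was lost. Quantile normalization turned Glul in IP (-0.018) and input (0.0033), and Pcx (-0.0072) and Slc1a2 (-0.62, adjusted p 0.0300) between fractions; it sets the most-read gene of every library to 1 value, and Slc1a2 is that gene in all IPs. Sample weights turned Pcx in IP (0.026), title sets Glul in input (0.0095), and source-name sets Slc7a11 (-0.0040) and Pcx (0.025) in IP and Slc1a1 (0.0063) and Glul (0.043) in input. Unscaled totals turned Pcx between fractions (-0.026). Over the fits that leave out a mouse, Slc7a11 ran from -0.033 to 0.16 and Pcx from -0.059 to 0.038 in IP. In input Pcx ran from -0.056 to 0.0057, Glul from -0.072 to 0.0056 and Slc38a3 from -0.11 to 0.0037. Between fractions Glud1 ran from -0.0019 to 0.092, Pcx from -0.054 to 0.060 and Slc38a3 from -0.15 to 0.018.

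With the animal as a block, Got1 between fractions had an adjusted p of 0.0186 and no member changed its call; 466 of all genes were called against 339. Within the lower animal numbers of the titles (3 control and 2 PMCA mice) Got1 in IP differed by -0.53. Within the higher numbers it differed by -0.54, but that set holds only 1 control mouse against 2 PMCA mice. The further glutamate genes called numbered 7 to 27 in IP, 0 to 5 in input and 0 to 10 between fractions over the alternatives, a range added after their values were seen. Each member had at least 1797 reads in every library, so the number of mice limits these results more than depth.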
